A study of Mus musculus with 6 samples.

Results

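Neutrophils carry a first set of granules, the primary or azurophil granules, whose contents are transcribed almost only while the cell is still an early progenitor. The 8 genes described here belong to that programme. They are *Mpo*, *Elane*, *Prtn3*, *Ctsg*, *Ctsc*, *Cst7*, *Srgn* and *Ms4a3*, taken by name from the table of 54532 genes, and all 8 were present and passed the expression filter (at least 1 FPKM when averaged over the libraries). FPKM counts fragments scaled to the length of the gene and to the size of the library, so levels can be compared between genes as well as between libraries. They were measured by RNA-seq in LSK cells, bone marrow cells sorted as Lin-, Sca1+ and c-Kit+, a gate that takes in haematopoietic stem and early progenitor cells, with 100000 sorted cells for each library.

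Mice of 2 groups on a C57BL/6 background were compared, with 3 libraries in each. The *Myh9*-deficient group (cKO) was Myh9fl/fl;Mx1-cre, in which poly I:C induces Cre and Cre removes the floxed part of *Myh9*, the gene of the non-muscle myosin IIA heavy chain. The control group (CTRL) was made of littermates of the genotype Myh9fl/fl;no cre, which carried the same floxed alleles and received the same poly I:C. Both groups were given 5 mg/kg poly I:C from 5 to 6 weeks of age, as 2 doses by the sample descriptions and 3 by the study's methods, and cells were sorted 4 days after the first dose. *Mx1-cre* responds to interferon in many cell types and is not limited to blood cells, and poly I:C itself calls forth interferon in both groups. How many mice each cell set came from is not stated, so the p-values measure the spread between these sets.

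Granule genes come on as a progenitor commits to the granulocyte and monocyte branch, under PU.1, C/EBP factors, RUNX1 and MYB, and they go off again at the promyelocyte to myelocyte step, before the later granules are filled. The proteases are made as inactive precursors, folded in the endoplasmic reticulum, trimmed to their active form by cathepsin C and packed on the proteoglycan serglycin. Within the LSK gate, multipotent progenitors that lean to the myeloid side are known to carry these transcripts, and stem cells carry little of them.

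The promoters of the 4 genes with the highest levels and of *Srgn*, the 1 gene that did not pass the test, are shown. The 4 all fell, but by different amounts, with *Ctsg* falling least. Each line gives 300 bases around the transcription start from RefSeq (GRCm38.p6), on the strand of the gene and 5′ to 3′. Capitals mark GAGGAA (a PU.1 core) and TGTGGT (a RUNX core), each on either strand, so that a RUNX core on the other strand reads ACCACA. The *Srgn* window shown here held neither, and no match to TTGCNNAA (a C/EBP palindrome) lies in these 5 windows. The window of the other *Srgn* start, which is not shown, held a RUNX core 202 bases before that start. RefSeq starts need not be the gene starts of the deposited table, and all of those shown but that of *Ctsg* lie inside the listed span.
Mpo, chr11:87793534-87793833, plus strand: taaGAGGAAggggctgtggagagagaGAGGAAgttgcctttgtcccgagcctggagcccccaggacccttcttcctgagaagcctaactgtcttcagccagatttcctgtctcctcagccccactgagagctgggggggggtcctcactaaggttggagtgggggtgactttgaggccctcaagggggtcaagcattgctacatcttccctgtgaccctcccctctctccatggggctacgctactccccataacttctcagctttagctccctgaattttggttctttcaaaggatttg
Elane, chr10:79886062-79886361, plus strand: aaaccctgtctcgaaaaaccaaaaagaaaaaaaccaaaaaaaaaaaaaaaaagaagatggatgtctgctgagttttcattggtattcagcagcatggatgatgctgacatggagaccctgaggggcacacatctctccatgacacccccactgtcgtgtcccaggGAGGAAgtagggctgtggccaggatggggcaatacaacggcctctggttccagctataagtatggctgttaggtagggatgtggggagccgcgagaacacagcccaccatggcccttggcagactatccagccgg
Prtn3, chr10:79879417-79879716, plus strand: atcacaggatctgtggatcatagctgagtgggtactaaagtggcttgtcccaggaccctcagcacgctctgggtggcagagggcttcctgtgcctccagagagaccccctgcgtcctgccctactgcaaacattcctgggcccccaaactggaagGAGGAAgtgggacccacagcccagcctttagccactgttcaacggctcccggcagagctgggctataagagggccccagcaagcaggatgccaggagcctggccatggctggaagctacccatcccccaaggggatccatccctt
Ctsg, chr14:56102525-56102824, minus strand: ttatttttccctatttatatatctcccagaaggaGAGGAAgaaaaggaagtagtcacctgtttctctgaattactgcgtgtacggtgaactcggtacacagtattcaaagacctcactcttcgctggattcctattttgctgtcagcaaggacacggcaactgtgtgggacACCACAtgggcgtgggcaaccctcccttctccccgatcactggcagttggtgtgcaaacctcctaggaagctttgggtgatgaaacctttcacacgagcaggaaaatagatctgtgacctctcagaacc
Srgn, first of 2 starts, chr10:62527396-62527695, minus strand: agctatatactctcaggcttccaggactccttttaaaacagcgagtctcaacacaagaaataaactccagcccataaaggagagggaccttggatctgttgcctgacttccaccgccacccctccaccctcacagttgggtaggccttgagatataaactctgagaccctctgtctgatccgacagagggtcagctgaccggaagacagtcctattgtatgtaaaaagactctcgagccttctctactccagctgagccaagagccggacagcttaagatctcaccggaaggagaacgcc

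In *Elane* the GAGGAA began 85 bases before the start and in *Prtn3* 95 bases before it, while *Mpo* held it 247 and 224 bases and *Ctsg* 216 bases before the start. The motif was present in 6 of the 9 promoters of the 8 genes (*Srgn* has 2), against 28.3% of 32851 promoters of the same length. The windows of *Cst7* and both windows of *Srgn* held none. The RUNX core was found in 3 of the 9 (16.8% of all promoters), those of *Ctsg*, *Cst7* and the *Srgn* start not shown. The C/EBP palindrome was found in 2 of the 9 (10.8%), those of *Ms4a3* and *Cst7*. A MYB core, AACNG, which is short and common, was present in 8 (80.3%). A GATA core, AGATAA, was found in none of the 9 and in 11.2% of all promoters. These are matches of letters in a window and say nothing of binding.

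Each library held 17571544 to 19894562 reads on genes, and the replicates of a group differed by more than sampling noise. *Myh9* itself was read at 22.98, 22.62 and 22.00 FPKM in the control libraries and at 18.40, 19.96 and 17.65 FPKM in the *Myh9*-deficient ones, a log2 fold change of -0.26 (SE 0.0487, limma adjusted p = 0.00642). This value covers the whole gene, and the floxed part alone was not measured. *Ly6a* and *Kit*, which encode Sca1 and c-Kit, were expressed in both groups at means of 95.4 and 23.9 FPKM in the control group and 89.5 and 21.5 FPKM in the *Myh9*-deficient group. Of all 11552 genes tested, 20.6% were lower and 19.9% higher in *Myh9*-deficient cells at an adjusted p under 0.05, and 0.701% were more than 2-fold lower at an unadjusted p under 0.05, so a single call is a common event in these data.

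The granule genes were lower in *Myh9*-deficient LSKs. Of the 8, 7 fell at an adjusted p under 0.05, none rose, and *Srgn* did not pass. For all 8, every *Myh9*-deficient library lay below every control library, which was the case for 28.5% of all genes tested. *Elane* alone was past 2-fold. The median log2 fold change of the 8 was -0.37, and that of all genes tested was -0.01. With 3 libraries against 3, an exact permutation test of 1 gene cannot give a two-sided p below 0.1, so the calls come from limma, which pools the spread over genes. In bulk RNA, fewer cells of a type and less RNA per cell cannot be told apart.

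**Figure D1:**
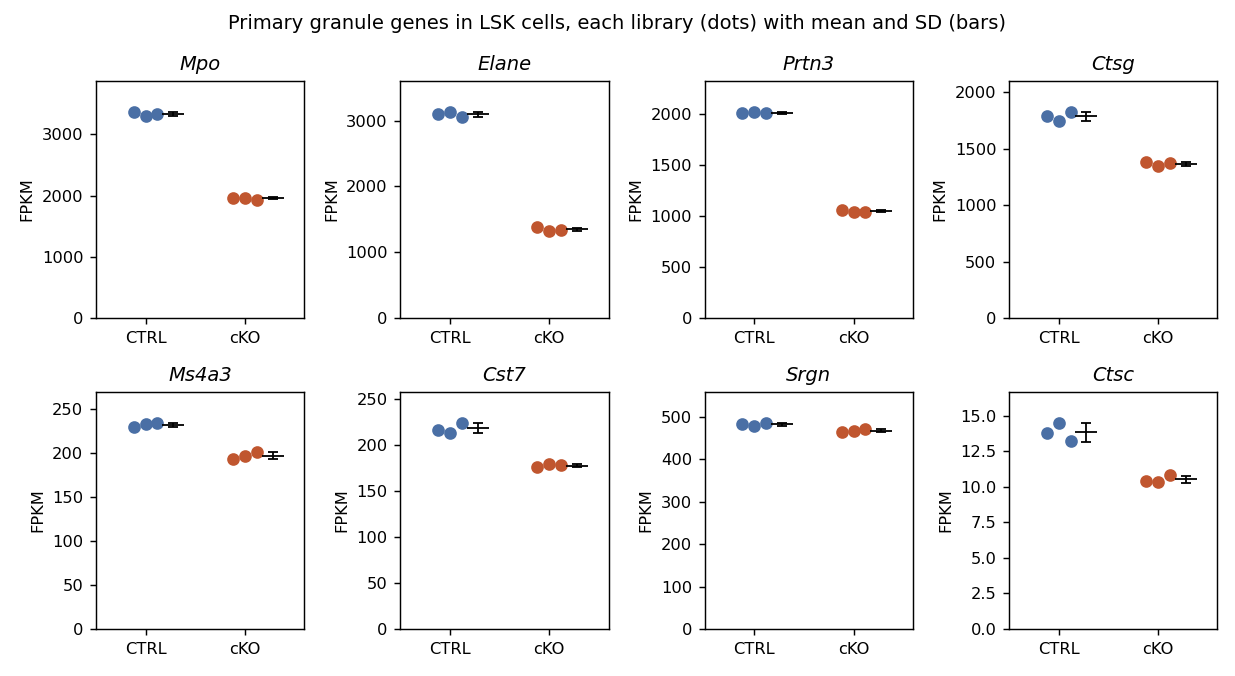
FPKM of each granule gene in the 3 CTRL and 3 cKO libraries (dots), with the group mean and SD (bars) beside them, each panel on its own linear axis from 0. In every panel the 3 cKO libraries lie below the 3 CTRL libraries, with a wide gap for *Elane* (56.5% lower) and a narrow one for *Srgn* (3.11% lower).

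*Mpo* encodes myeloperoxidase, the haem enzyme that makes hypochlorous acid and gives the azurophil granule its stain. It is read here as ENSMUSG00000009350, a protein-coding gene on the plus strand at chr11:87793581-87804413 (GRCm38). The control libraries gave 3363, 3298 and 3333 FPKM, and the *Myh9*-deficient libraries gave 1961, 1965 and 1934 FPKM. The groups were far apart, and within each of them the libraries lay within a few percent of one another. The mean fell from 3331 ± 32.1 to 1953 ± 17.0 FPKM (SD, n = 3 each, as for every ± on FPKM here), by 41.4%. The log2 fold change was -0.77 (SE 0.0209, 95% interval -0.82 to -0.72, limma adjusted p = 3.53e-06). *Mpo* ranked 7, 7 and 8 among all genes by FPKM in the control libraries and 21, 22 and 24 in the *Myh9*-deficient ones. Between 199031 and 228956 reads lay behind it in a control library and between 122655 and 125747 in a *Myh9*-deficient one, on average 1.14% and 0.676% of all reads on genes.

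The relatives of *Mpo* in the haem peroxidase family were at low levels. *Epx*, the eosinophil peroxidase gene near *Mpo* on chromosome 11, had 0.970 ± 0.0984 FPKM in CTRL and 1.52 ± 0.186 FPKM in cKO and rose (log2 fold change 0.35, limma adjusted p = 0.0199). It passed the filter of 1 FPKM only through its level in cKO, so this rise cannot be set apart from the filter. The call of *Epx* was lost with a replicate block and without CTRL replicate 1, cKO replicate 1 or cKO replicate 3. *Lpo* and *Pxdn* were under the filter.

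*Elane*, *Prtn3* and *Ctsg* encode neutrophil elastase, proteinase 3 and cathepsin G, the serine proteases of the azurophil granule. *Elane* and *Prtn3* lie side by side on chromosome 10, in the same direction with 3072 bases between them, at chr10:79886247-79888215 (ENSMUSG00000020125) and chr10:79874476-79883174 (ENSMUSG00000057729). *Ctsg* (ENSMUSG00000040314) lies on the minus strand at chr14:56099881-56102574, within the cluster of mast cell protease and granzyme genes. All are protein-coding.

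For *Elane*, the control libraries gave 3102, 3130 and 3056 FPKM and the *Myh9*-deficient libraries 1379, 1325 and 1336 FPKM. No library came near the other group. The mean fell from 3096 ± 37.6 to 1346 ± 28.5 FPKM, by 56.5%, with a log2 fold change of -1.20 (SE 0.0246, 95% interval -1.26 to -1.14, limma adjusted p = 2.18e-06). It was the deepest fall of the 8, and *Elane* went from rank 9 in every control library to ranks 39, 40 and 44.

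*Prtn3* was at 2007, 2015 and 2001 FPKM in control libraries and at 1058, 1039 and 1042 FPKM in *Myh9*-deficient ones. The values within a group were almost equal, and the groups were separated by far more than their spread. The mean fell from 2008 ± 7.38 to 1046 ± 10.4 FPKM, by 47.9% (log2 fold change -0.94, SE 0.0201, 95% interval -0.99 to -0.89, limma adjusted p = 2.18e-06). It stayed just inside 2-fold, and it passed 2-fold (-1.01) once the trends with GC content and length had been taken out.

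*Ctsg* moved less. Its control libraries gave 1786, 1746 and 1823 FPKM and its *Myh9*-deficient libraries 1380, 1347 and 1373 FPKM. The mean fell from 1785 ± 38.6 to 1367 ± 17.2 FPKM, by 23.4% (log2 fold change -0.39, SE 0.0249, 95% interval -0.44 to -0.33, limma adjusted p = 8.08e-05). Under quantile normalization the log2 fold change was -0.23, still past the threshold. The limma intervals of *Ctsg* and of the other 2 proteases do not overlap, although the difference between genes was not itself tested.

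The expressed relatives of *Ctsg* in its cluster went the other way. Of 12 listed, 3 passed the filter and all 3 rose. *Mcpt8*, a basophil protease gene, went from 21.6 ± 1.78 to 42.0 ± 3.68 FPKM (log2 fold change 0.93), and *Gzmb*, the granzyme B gene of cytotoxic cells, from 5.04 ± 0.374 to 15.9 ± 0.0631 FPKM (1.49). *Cma1*, a mast cell chymase gene, was at 0.360 ± 0.155 and 4.63 ± 1.01 FPKM (2.04). *Cma1* passed the filter of 1 FPKM only through its level in cKO, so its rise cannot be set apart from the filter. Another 5 of the 12, *Mcpt1*, *Gzmd*, *Gzmf*, *Gzmg* and *Gzmn*, were listed at 0 in every library.

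*Ctsc* encodes cathepsin C, the dipeptidyl peptidase that removes the short propeptide of elastase, proteinase 3, cathepsin G and granzymes. It is read as ENSMUSG00000030560 at chr7:88278085-88310888 on the plus strand, and it was by far the lowest of the 8 genes. The control libraries gave 13.8, 14.5 and 13.2 FPKM and the *Myh9*-deficient libraries 10.4, 10.3 and 10.8 FPKM, without overlap. The mean fell from 13.8 ± 0.659 to 10.5 ± 0.260 FPKM, by 23.9% (log2 fold change -0.36, SE 0.0442, 95% interval -0.47 to -0.26, limma adjusted p = 0.00114). It rested on 1472 to 1589 reads in a control library and 1096 to 1170 in a *Myh9*-deficient one, and its error was the largest of the 8.

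*Cst7* encodes cystatin F, an inhibitor that reaches the endolysosome and acts on cathepsin C among other cysteine proteases. It is read as ENSMUSG00000068129 at chr2:150570415-150578944 on the plus strand. The control libraries gave 216, 213 and 224 FPKM, and the *Myh9*-deficient libraries 175, 179 and 178 FPKM. This was a fall from a mean of 218 ± 5.53 to 177 ± 1.80 FPKM, by 18.6% (log2 fold change -0.29, SE 0.0264, limma adjusted p = 3.14e-04). The activator and its inhibitor were both lower.

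*Ms4a3* encodes a membrane protein with several spans that marks progenitors of granulocytes and monocytes and is used for tracing them. It is read as ENSMUSG00000024681 at chr19:11629496-11640851 on the minus strand. The control libraries gave 229, 232 and 234 FPKM and the *Myh9*-deficient libraries 193, 196 and 201 FPKM. Its mean level fell from 232 ± 2.42 to 197 ± 4.11 FPKM, by 15.2% (log2 fold change -0.24, SE 0.0247, limma adjusted p = 5.80e-04). It was the smallest fall among the 7 genes that passed.

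*Srgn* encodes serglycin, the proteoglycan core on which the granule proteases are stored. Mast cells, platelets and lymphocytes make it too. It is read as ENSMUSG00000020077 at chr10:62493833-62527451 on the minus strand. The control libraries gave 482, 479 and 486 FPKM and the *Myh9*-deficient libraries 464, 468 and 471 FPKM. The groups did not overlap, but the difference was small, from 483 ± 3.58 to 468 ± 3.75 FPKM, and did not pass (log2 fold change -0.05, SE 0.0203, 95% interval -0.09 to 0.00285, limma adjusted p = 0.119). It passed in the same direction under 4 alternative settings, with an adjusted p of 0.0262 under quantile normalization, 0.0351 after rescaling to TPM, 0.0303 without moderation of the variance and 0.0152 with GC content and length trends removed.

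**Figure D2:**
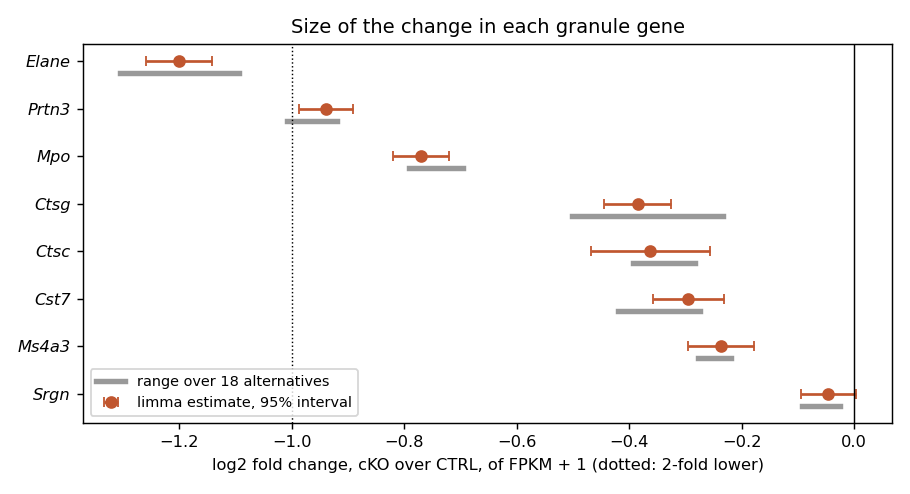
Log2 fold change of each granule gene (cKO over CTRL, on log2(FPKM + 1)) with its 95% interval from limma, and below each point the range over the 18 alternative settings. *Elane*, *Prtn3* and *Mpo* lie between -1.20 and -0.77, then *Ctsg*, *Ctsc*, *Cst7* and *Ms4a3* between -0.39 and -0.24, and the interval of *Srgn* reaches 0.

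The 8 genes together made up a smaller part of the transcriptome. Their summed level was 11129 to 11200 FPKM in control libraries and 6529 to 6620 FPKM in *Myh9*-deficient ones, 1.70-fold less in the mean. Of all reads on genes, 2.13 to 2.17% fell on the 8 in control libraries and 1.29 to 1.31% in *Myh9*-deficient ones. *Mpo*, *Elane*, *Prtn3* and *Ctsg* accounted for most of this, with 1.97% of reads in control and 1.14% in *Myh9*-deficient libraries on average.

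The mixture within the 8 was also different. *Mpo* kept its share of their summed FPKM (29.8 ± 0.193% and 29.8 ± 0.298%), while *Elane* went from 27.7 ± 0.385% to 20.5 ± 0.281% and *Prtn3* from 18.0 ± 0.111% to 15.9 ± 0.0400%. Shares taken up by the genes that moved less were larger, with *Ctsg* at 16.0 ± 0.318% and 20.8 ± 0.172% and *Srgn* at 4.32 ± 0.0279% and 7.12 ± 0.104%. These shares are not independent of each other, since they sum to the whole, and they were not tested.

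Ratios within a library, which do not depend on its scaling, showed the same. The ratio of *Elane* to *Prtn3*, the neighbours on chromosome 10, was 1.53 to 1.55 in CTRL and 1.28 to 1.30 in cKO. That of *Elane* to *Ctsg* was 1.68 to 1.79 in CTRL and 0.973 to 0.999 in cKO. In the same order, *Mpo* to *Elane* was 1.05 to 1.09 and 1.42 to 1.48, and *Mpo* to *Srgn* was 6.85 to 6.97 and 4.10 to 4.23. In each case the groups were apart by more than their range. In order of level, the control cells had *Mpo*, *Elane*, *Prtn3*, *Ctsg*, *Srgn*, *Ms4a3*, *Cst7* and *Ctsc*, with no overlap between neighbours in this order. In *Myh9*-deficient cells *Ctsg* and *Elane* stood together next below *Mpo* with overlapping values, above *Prtn3*, and the rest of the order was as in control.

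Such falls were uncommon among genes of high level. Of 621 genes tested with a control mean of at least 100 FPKM, 24.6% were lower at an adjusted p under 0.05, and only 29 had a log2 fold change below -0.5, with a median over the 621 of 0.04. Ranked by the depth of the fall among these 621, *Elane* came 3, *Prtn3* 6 and *Mpo* 12. *Ctsg* came 43, *Cst7* 59, *Ms4a3* 76 and *Srgn* 208, and *Ctsc* was below this level.

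**Figure D3:**
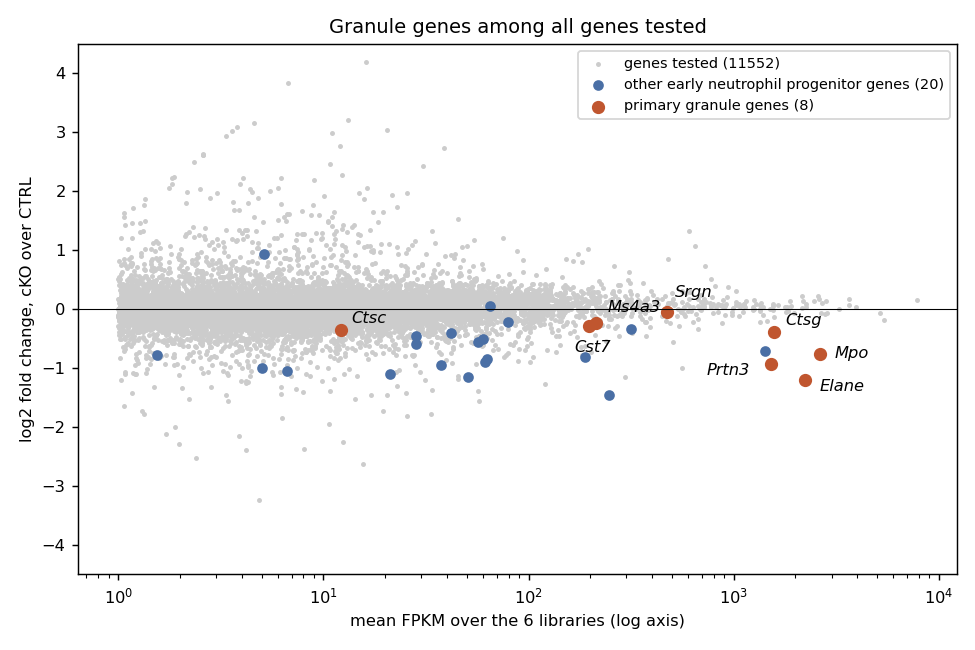
Mean FPKM over the 6 libraries (log axis) against the log2 fold change, cKO over CTRL, for the 11552 genes tested (grey), 20 other early neutrophil progenitor genes (blue) and the 8 granule genes (orange). *Mpo*, *Elane* and *Prtn3* lie at the far right below the cloud, and *Ctsg* lies above them at a similar level.

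Genes that early neutrophil progenitors express beside the 8 were lower as a group. Of 20 listed and tested, 18 fell, 1 rose and 1 did not pass, with a median log2 fold change of -0.75. *Ly6c2*, a surface marker of the monocyte and neutrophil branch, fell from 361 ± 18.9 to 131 ± 9.24 FPKM (log2 fold change -1.45), *Fcgr3*, the CD16 Fc receptor gene of the granulocyte-monocyte gate, from 70.3 ± 0.659 to 31.3 ± 2.86 FPKM (-1.15) and *Mgst1*, a glutathione transferase gene, from 29.1 ± 1.08 to 13.1 ± 0.389 FPKM (-1.10). *Plac8*, which early progenitors of several branches express, was the highest of them, and fell from 1759 ± 54.6 to 1069 ± 14.3 FPKM (-0.72). *Nkg7*, a gene of granule-bearing cells, fell from 353 ± 4.87 to 280 ± 2.97 FPKM (-0.34). *Chil3*, a chitinase-like gene, rose from 3.20 ± 0.346 to 7.06 ± 0.585 FPKM (0.94), and *Cd34*, named after its values were seen because it was the 1 gene that did not pass, was at 63.8 ± 0.557 and 66.0 ± 1.90 FPKM.

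The other proteins of azurophil granules and lysosomes were split. Of 22 listed, 20 were tested, 11 fell, 1 rose and 8 did not pass (median -0.20). *Ctsh* (cathepsin H) had a log2 fold change of -1.14, *Hexa* (a hexosaminidase subunit) of -0.90 and *Lyz2* (lysozyme) of -0.79. *Ctsz* (cathepsin Z), the highest of the list, fell from 249 ± 6.81 to 207 ± 6.47 FPKM (-0.27). *Cd63*, the tetraspanin of azurophil membranes, rose from 45.8 ± 1.97 to 60.9 ± 3.17 FPKM (0.40). *Prss57*, the fourth neutrophil serine protease and named after its values were seen, fell from 39.3 ± 0.921 to 30.9 ± 0.872 FPKM (-0.34), close to *Ctsg*.

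Transcription factors known from granule genes and from the choice between the neutrophil and monocyte branches, restraining factors included, were mostly lower. Of 16 listed, 15 were tested, 12 fell, none rose and 3 did not pass (median -0.34). *Irf8*, the factor of the monocyte branch, had the deepest fall, from 52.1 ± 0.553 to 14.5 ± 1.07 FPKM (log2 fold change -1.78). *Cebpa* fell from 104 ± 1.95 to 79.0 ± 3.57 FPKM (-0.39), *Spi1*, which encodes PU.1, from 107 ± 0.629 to 84.6 ± 2.0 FPKM (-0.34), *Cebpb* from 47.3 ± 7.09 to 27.7 ± 4.98 FPKM (-0.76) and *Klf4* from 2.66 ± 0.374 to 1.09 ± 0.207 FPKM (-0.81). The 3 that did not pass, named after their values were seen, were *Myb*, *Cbfb* and *Rara*. *Gfi1*, also named afterwards as a factor of the neutrophil branch, moved from 30.2 ± 0.228 to 27.7 ± 0.542 FPKM (-0.12, limma adjusted p = 0.0151), a call lost without CTRL replicate 2.

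The machinery that folds and sorts granule proteins had 11 genes lower, 3 higher and 8 not passing among 22 tested of 24 listed (median -0.13). *Calr*, the calreticulin gene whose product binds the *Mpo* precursor, fell from 748 ± 19.1 to 593 ± 13.4 FPKM (log2 fold change -0.34), and *Pdia3*, a disulfide isomerase gene, from 293 ± 4.12 to 235 ± 4.09 FPKM (-0.32). *Rab27a*, a GTPase of granule docking, had -0.53 and *Ap3s1*, a subunit of the AP-3 sorting adaptor, -0.36. *Vamp8* (0.40), *Hax1* (0.28) and *Jagn1* (0.27) rose.

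The enzymes that build the glycosaminoglycan chains of serglycin were lower in 9, higher in 2 and not passing in 7 of 18 tested genes of 20 listed (median -0.11), and without CTRL replicate 2 the 9 were 5. *Chst12*, a chondroitin sulfotransferase gene, fell from 27.2 ± 1.86 to 17.6 ± 0.631 FPKM (log2 fold change -0.60), *Chsy1*, a chondroitin synthase gene, from 14.7 ± 0.826 to 9.75 ± 0.694 FPKM (-0.55) and *Xylt1*, which starts the chain, from 3.08 ± 0.135 to 1.99 ± 0.272 FPKM (-0.45). *B3gat3*, the highest of them, had -0.16, and its call was lost on leaving out CTRL library 2 or 3, or cKO library 1 or 3. *Ext1* (0.30) and *Chst15* (0.23) rose, and the call of *Chst15* was lost without CTRL replicate 2 or any 1 of the cKO libraries. The core protein gene itself, *Srgn*, did not pass.

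Inhibitors of the granule proteases showed no common direction. Of 17 listed, 9 were tested, 3 rose, 2 fell and 4 did not pass (median 0.10). *Serpina3g* rose from 93.7 ± 0.952 to 150 ± 4.19 FPKM (log2 fold change 0.68), *Serpina3f* from 3.18 ± 0.287 to 8.67 ± 0.649 FPKM (1.21) and *Serpinb6b* by 0.40, the last a call that was lost in 7 of 18 alternative settings, among them the replicate block and leaving out CTRL library 1 or 2, or cKO library 1 or 2. *Slpi*, the secretory leukocyte protease inhibitor gene, fell from 52.5 ± 2.71 to 42.2 ± 2.30 FPKM (-0.31), and *Cst3*, the cystatin C gene, from 397 ± 3.89 to 342 ± 5.04 FPKM (-0.22).

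Genes of the later neutrophil granules, which belong to cells past the progenitor stage, moved both ways. Of 16 listed, 12 were tested, 5 fell, 3 rose and 4 did not pass (median -0.20), and their summed level was 277 to 291 FPKM in CTRL and 260 to 289 FPKM in cKO. *Ltf* (lactoferrin, log2 fold change -0.67), *Camp* (cathelicidin, -0.63), *Cxcr2* (-0.52) and *S100a9* (-0.18) fell, and the call of *S100a9* was lost on leaving out CTRL library 3, or cKO library 1 or 2. *Retnlg* (1.65), *Lcn2* (0.65) and *Mmp9* (0.45) rose, and *S100a8* was at 67.8 ± 2.28 and 67.3 ± 9.18 FPKM.

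Markers of other cell types changed as well, some lists downwards and others upwards, and their part in these results was not tested. Of 9 monocyte and macrophage markers tested of 12 listed, 6 fell and 3 rose (median -1.0), and their summed level was 112 to 116 FPKM in CTRL and 49.2 to 51.6 FPKM in cKO. *Cd14* (log2 fold change -2.26), *Csf1r* (-1.46) and *F13a1* (-1.21) fell, while *C1qa* (1.37), *C1qb* (1.27) and *C1qc* (0.91), the complement genes of tissue macrophages, rose. Erythroid markers rose in 9 of 9 tested of 10 listed, from summed levels of 547 to 554 FPKM to 980 to 1019 FPKM, and megakaryocyte markers in 5 of 5 tested of 10, from 68.5 to 73.7 FPKM to 143 to 150 FPKM. Among the erythroid ones, the globin genes *Hbb-bt* and *Hba-a1* had log2 fold changes of 3.04 and 1.28, *Cldn13* 1.56, and the carbonic anhydrase genes *Car1* and *Car2*, the highest of the list, 0.84 and 0.79. *Gp9* (1.14), *Itga2b* (1.09) and *Pf4* (1.07) led the megakaryocyte genes. Mast cell and basophil markers rose in 6 of 8 tested of 11, from 143 to 155 FPKM to 206 to 215 FPKM, with *Prss34* at 2.05 besides *Cma1* and *Mcpt8*, and the highest, *Cpa3* and *Gata2*, at 0.22 and 0.18. The tryptase gene *Tpsab1*, named after its values were seen, was at 0 in every library.

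T and NK cell markers rose in 4 of 4 tested of 12 listed, from 17.4 to 21.3 FPKM to 64.6 to 67.4 FPKM, led by *Ccl5* (log2 fold change 1.73), *Trbc2* (1.69) and *Gzmb*. *Cd3e*, named after its values were seen, was listed at 0 in all control libraries. With no filter on low values 9 of them were called, and with a minimum of 5 FPKM 2. Of the B and plasma cell markers 3 rose and 2 fell among 6 tested of 10 (132 to 137 and 154 to 159 FPKM), and of the eosinophil markers 2 rose and 1 fell among 4 tested of 9 (27.6 to 29.0 and 34.9 to 38.1 FPKM). *Jchain* (1.05), *Mzb1* (0.84) and *Cd79a* (0.54) were higher and *Xbp1* (-0.32) and *Sdc1* (-0.41) lower in the first, where the call of *Sdc1* was lost with the replicate block and without CTRL replicate 1. In the second, *Prg2* (0.96) and *Epx* were higher and *Siglecf* (-0.66) lower, and the call of *Epx* was lost as given above. Of the 9 genes of the LSK gate and its subdivisions, 3 fell (*Fcgr3*, *Kit* at -0.14 and *Ptprc* at -0.15), *Procr* (0.67) and *Flt3* (0.58) rose, and 4 did not pass. The call of *Ptprc* was lost without any 1 of the 6 libraries and with the replicate block, which left 2 of the 3 falls, and that of *Kit* was lost with GC content and length trends removed.

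**Figure D4:**
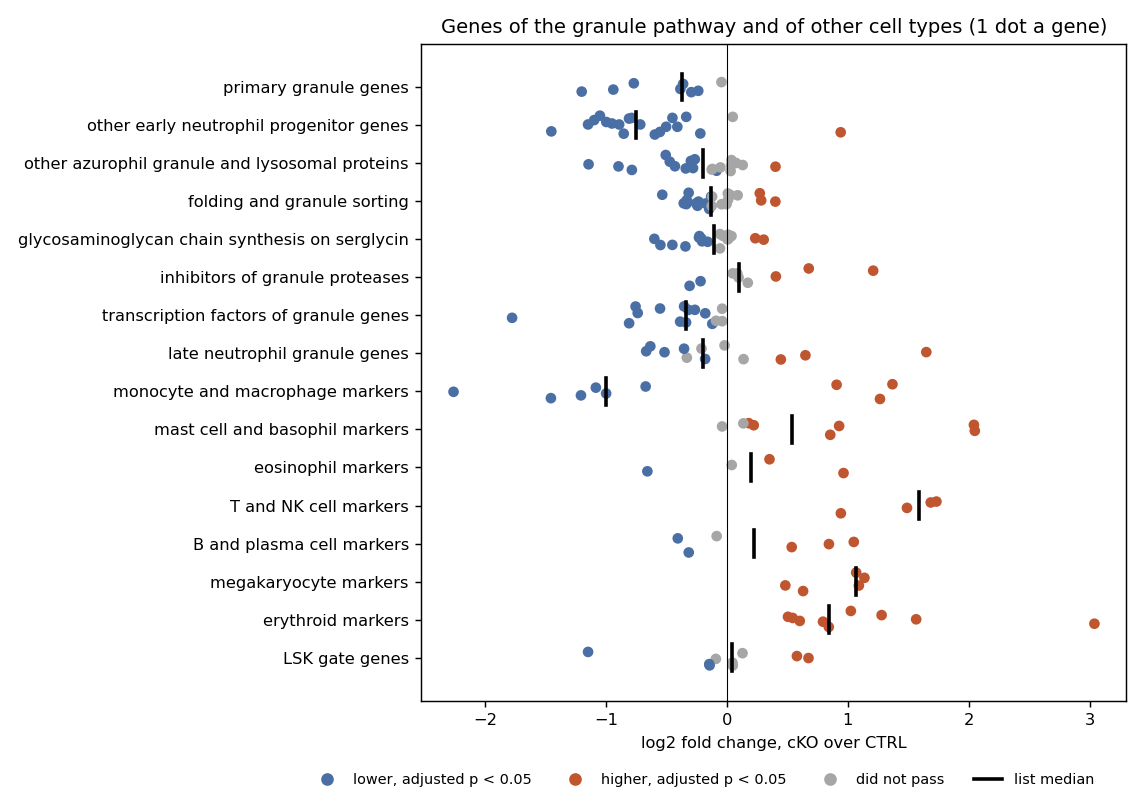
Log2 fold change (cKO over CTRL) of each tested gene in the granule gene list, in the lists of its pathway and in the lists of cell type markers, 1 dot a gene, coloured by the limma call, with the list median as a black bar. The early neutrophil progenitor genes (median -0.75) and the granule genes (-0.37) lie mostly to the left, and the erythroid and megakaryocyte markers lie to the right.

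The change in the granule genes was set beside that of the genes around them. Taking the 2 nearest tested genes on each side of each granule gene gave 28 distinct neighbours, of which 6 fell, 9 rose and 13 did not pass, with a median log2 fold change of 0.02. On the far side of *Elane*, *Gm19810* (0.05) and *Med16* (-0.01) did not pass. On the far side of *Prtn3*, *Plppr3* fell from 61.6 ± 2.72 to 48.3 ± 0.157 FPKM (-0.34) and *Ptbp1* had -0.09, a call lost without CTRL replicate 2. *Plppr3* lies on the opposite strand and overlaps the *Prtn3* span at its 5′ side, and the library kit as listed does not mark strand, so reads in the overlap cannot be told apart.

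Around *Ctsg*, *Mcpt8* at 14.6 kb, *Cma1* at 155.2 kb and *Gzmb* on the other side at 156.3 kb rose, as given above. Around *Mpo*, *Tspoap1* (log2 fold change -0.55) and *Mks1* (-0.29) fell, *Epx* rose and *Mir142b* did not pass, and the call of *Mks1* was lost with the replicate block and on leaving out CTRL library 1 or 2, or cKO library 1 or 2. Beside *Ms4a3*, *Ms4a6d* of the same family fell from 1.78 ± 0.0772 to 1.05 ± 0.168 FPKM (-0.44), *Ms4a2* did not pass, and *Oosp1* (0.68) and *Mrpl16* (0.36) rose. Of the neighbours of *Cst7* none passed. *Rab38* (0.49) and *Rps13-ps2* (0.32) rose beside *Ctsc*, and *Ddx21* (0.27) rose and *Vps26a* (-0.10) fell near *Srgn*. The calls of *Rps13-ps2* and *Vps26a* were lost in 11 and 10 of the 18 alternative settings, those of *Vps26a* on leaving out any 1 library and those of *Rps13-ps2* on leaving out any but cKO library 2 or 3. Sequence shared with other transcripts was rare in the 8 genes, with 0.228% of 50-base stretches in *Mpo*, 0.448% in *Ctsc* and none in the other 6.

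**Figure D5:**
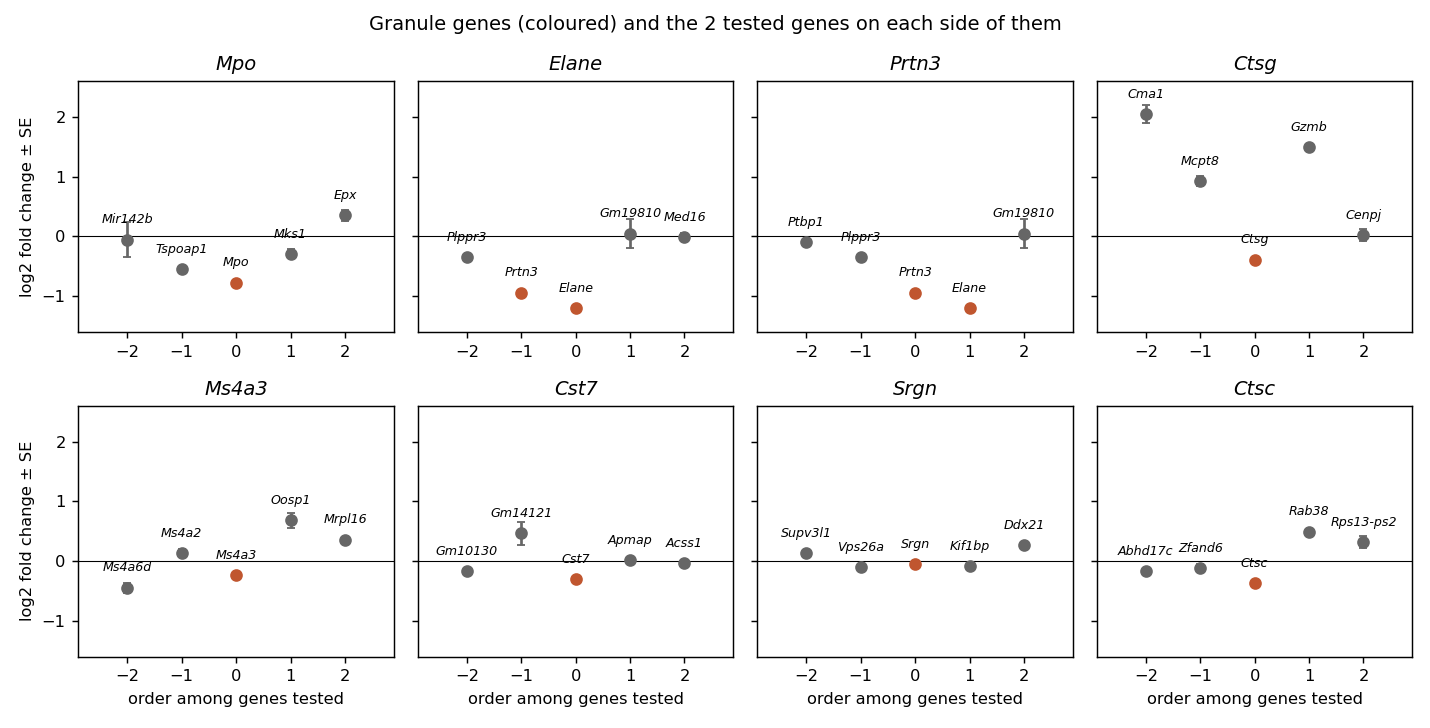
Log2 fold change ± SE (cKO over CTRL) of each granule gene (position 0) and of the 2 tested genes on either side, in order along the chromosome and not to distance, with granule genes in orange. *Elane* and *Prtn3* appear in each other's panels, and the neighbours of *Ctsg* at -2 (*Cma1*, 2.04), -1 (*Mcpt8*, 0.93) and 1 (*Gzmb*, 1.49) lie above 0.

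Over the 6 libraries, the genes whose log2(FPKM + 1) was most like that of *Mpo* were *Hk3*, a hexokinase gene (Pearson r = 0.9998), *F13a1*, the coagulation factor XIII A chain gene (r = 0.9997) and *Serp1*, a stress-associated protein gene of the endoplasmic reticulum (r = 0.9996). For *Elane* they were *Dhdds* (r = 0.9998), *Ighm* (r = 0.9997) and *Hyou1*, a chaperone gene of the endoplasmic reticulum (r = 0.9996). These values describe 6 points in 2 clusters and carry no test, and 544 of 11552 genes had an r over 0.98 with *Mpo*. The other granule genes had r between 0.927 and 0.999 with *Mpo*.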

How the data were processed

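The 6 libraries (3 CTRL and 3 cKO) were prepared with an Illumina TruSeq RNA kit and sequenced by a company. The submitters' processing notes name HISAT2 2.0.5 and mm10, and the counting program is not given in the sources used here. The authors deposited FPKM values with gene lengths, 1 column a library, for 54532 genes. Multiplied by gene length, 100% of the values in a library were whole multiples of its smallest unit (tolerance 0.1 of a read), which gave the reads behind each value. The library sizes behind the deposited FPKM were proportional to median of ratios size factors, 0.990 to 1.01 times the reads on genes.

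Tests covered the 11552 genes that averaged at least 1 FPKM, on log2(FPKM + 1) with limma 3.58.1 (lmFit, eBayes with a trend, two-sided, R 4.3.3), with Benjamini-Hochberg adjustment over all of them. Every adjusted p printed is from this fit unless a setting is named, and fold changes on this scale understate those of genes at low FPKM. Correlations of deviations between same-numbered libraries were -0.00459, -0.0112 and -0.0262, so no pairing by number was seen, which does not show that there was none. Fitting was tested on simulated data.

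The 8 genes and the 17 lists of other genes were chosen with earlier results of these data known, and some genes stand in more than 1 list. Named genes were, in each list, the 3 largest changes in each direction past the threshold and the 2 highest genes, with the neighbours, relatives and most similar genes described. Exceptions are marked. Promoters were from RefSeq (GRCm38.p6), matched for all 8 genes, and overlaps and shared sequence came from the deposited coordinates and GENCODE M21. Alternatives were a pseudocount of 0.1, no filter, a minimum of 5 FPKM, median of ratios, quantile normalization, TPM, no moderation, no trend, a replicate block, each library left out in turn, voom on recovered reads and removal of GC content and length trends. Scaling by total recovered reads was chosen after seeing the data. Python 3.11.15 with pandas 2.3.3, numpy 2.4.6 and matplotlib 3.10.9 was used for the rest.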

Additional observations from a re-analysis of the deposited data

How the results depend on the processing

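Under 18 alternatives, 140 of 144 fits of the 8 genes kept their direction and their side of the threshold, and the other 4 were *Srgn* passing, as given with its values. The number of genes past 2-fold was 2 with GC content and length trends removed, where *Prtn3* joined *Elane*, and 1 in every other setting. With a replicate block, 7 of the 8 were lower and none higher, and the block lost no call among the 8, while the calls over all genes went from 2378 lower and 2295 higher to 2044 and 2063. The log2 fold changes ranged from -1.31 to -1.09 for *Elane*, -1.01 to -0.92 for *Prtn3*, -0.79 to -0.70 for *Mpo*, -0.50 to -0.23 for *Ctsg*, -0.42 to -0.27 for *Cst7*, -0.39 to -0.28 for *Ctsc*, -0.28 to -0.22 for *Ms4a3* and -0.09 to -0.03 for *Srgn*. Median of ratios scaling gave the deposited values back. The summed share of the 8 in control over that in cKO was 1.73 by FPKM and 1.65 by recovered reads, a shift larger than the spread between libraries. The list counts were recomputed under 11 of the 18 (pseudocount, filters, median of ratios, block and each library left out), and of 374 such counts, 348 stayed within 1.5 times and 26 moved, each from a count of 3 or fewer apart from the lower glycosaminoglycan genes and the higher T and NK cell markers given above. The cause of these moves was not tested. *Ctsc*, the gene with the fewest reads, had the largest SE of the 8. How many mice stand behind a library is not stated, which limits what the p-values cover.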
